A study of Homo sapiens with 6 samples.

Results

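This report describes 10 genes that encode chemokines, cytokines and their receptors, followed across the RNA-Seq libraries of HCT116, a widely used cell line from a human colorectal carcinoma. The genes were found by symbol in the deposited table of 27942 genes: the chemokine ligands CXCL1, CXCL2, CXCL3, CXCL8 and CCL20, the chemokine receptor CXCR2, the cytokines IL1A and LIF, the cytokine subunit EBI3 and the receptor subunit IL17RB. All 10 were present, each in 1 row. One group of 3 libraries came from cells grown for 24 h with 0.5 µM oxaliplatin (OXA), the concentration described as the IC50, and the other group of 3 from non-treated cells (NT). Both groups were HCT116 with wild-type p53, grown in RPMI with bovine serum and, by the labels, Pen/Strep, whereas the study's methods state that no antibiotic was used. They differed by the drug. All libraries were from the same line, and nothing in the labels says whether the replicates were separate cultures, so that the p-values measure only the spread between these libraries, which may be technical.

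Chemokines are small secreted proteins that guide leukocytes by binding receptors of the G protein-coupled class. CXCL1, CXCL2, CXCL3 and CXCL8 attract neutrophils mainly through CXCR2, and their genes are well known targets of NF-kappaB. CCL20 attracts cells that carry CCR6. Among the cytokines, IL1A is an alarmin released by damaged epithelial cells. LIF signals through LIFR and IL6ST to JAK kinases and STAT3. EBI3 pairs with other chains to form heterodimeric cytokines, and IL17RB pairs with IL17RA to receive IL17B and IL25.

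The genes lie on 5 chromosomes of GRCh38, with positions from GENCODE release 44. The 4 CXC ligands are neighbours on chromosome 4, CXCL8 at 73740519 to 73743716 and CXCL1 at 73869393 to 73871308 on the plus strand, and CXCL3 at 74036589 to 74038807 and CXCL2 at 74097040 to 74099196 on the minus strand. On chromosome 2 lie IL1A (112773925 to 112784493, minus strand), CXCR2 (218125289 to 218137251, plus strand) and CCL20 (227805739 to 227817564, plus strand). IL17RB lies on chromosome 3 (53846568 to 53865794, plus strand), EBI3 on chromosome 19 (4229523 to 4237528, plus strand) and LIF on chromosome 22 (30240453 to 30246759, minus strand). Annotated antisense RNAs overlap LIF (LIF-AS1 and LIF-AS2) and IL17RB. The libraries were stranded, but the strand setting of the counting is not given in the sources used here, so reads of LIF or IL17RB and of these antisense partners cannot be told apart.

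CXCL1, CXCL2 and CXCL3 are close copies of one another. Their coding sequences, 321 bases each without the stop codon, were 93.5% identical between CXCL1 and CXCL2, 90.7% between CXCL1 and CXCL3, and 94.4% between CXCL2 and CXCL3. CXCL8 had 47.5% to 50.5% identity with them. The longest run shared exactly by a pair of transcripts was 97 bases, in CXCL2 and CXCL3, against a read length of 100 bases. A full-length read could thus not match a pair of these transcripts exactly, but a read shortened by trimming could. The labels name RSEM among the tools, and how shared reads were divided is not stated further. The separate counts of CXCL1, CXCL2 and CXCL3 are uncertain to that extent. The likeness extends to the promoters. The 100 bases before the annotated RefSeq start (GRCh38.p14) are printed 5′ to 3′ on the gene's strand for these ligands, because the copies can be seen in them, and for the 3 genes that passed the test between OXA and NT. Capitals mark matches to GGNNTTTCC, a pattern of NF-kappaB sites, or in CXCR2 to a p53 half-site. They lie at chr4:73869293-73869392 (CXCL1), chr4:74099196-74099295 (CXCL2), chr4:74038690-74038789 (CXCL3), chr4:73740469-73740568 (CXCL8), chr2:218125928-218126027 (CXCR2), chr19:4229423-4229522 (EBI3) and chr3:53846468-53846567 (IL17RB).
CXCL1: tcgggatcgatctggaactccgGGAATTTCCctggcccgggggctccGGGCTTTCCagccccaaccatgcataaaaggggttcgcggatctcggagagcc
CXCL2: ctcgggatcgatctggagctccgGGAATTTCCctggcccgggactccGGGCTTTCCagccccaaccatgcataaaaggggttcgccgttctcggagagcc
CXCL3: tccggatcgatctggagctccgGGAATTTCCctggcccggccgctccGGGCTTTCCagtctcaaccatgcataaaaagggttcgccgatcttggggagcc
CXCL8: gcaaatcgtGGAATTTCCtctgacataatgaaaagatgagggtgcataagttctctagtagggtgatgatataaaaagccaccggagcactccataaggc
CXCR2: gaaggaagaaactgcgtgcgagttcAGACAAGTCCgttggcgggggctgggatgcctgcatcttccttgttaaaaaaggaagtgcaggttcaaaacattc
EBI3: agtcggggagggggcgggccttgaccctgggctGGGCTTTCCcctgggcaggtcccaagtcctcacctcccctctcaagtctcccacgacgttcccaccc
IL17RB: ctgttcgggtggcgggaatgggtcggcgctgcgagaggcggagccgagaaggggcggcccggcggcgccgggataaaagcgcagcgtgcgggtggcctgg

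CXCL1, CXCL2 and CXCL3 were 89.1% to 94.1% identical over these bases, and each held the pattern at nearly the same pair of places, whereas CXCL8 held it once, farther from the start. Over 250 bases before the start and on both strands, GGNNTTTCC occurred in 6 of the 9 genes that had a promoter entry (the 4 CXC ligands, CCL20 and EBI3), against 5.48% of all 35116 promoters. The pattern was chosen with the promoters of these genes in view, so that the count is a description. Of the same 9 genes, TGANTCA, a pattern of AP-1 sites, was found in CXCL8, IL1A and EBI3 (6.57% of all promoters). The p53 half-site occurred in CXCR2 alone among the 9 (5.57% of all promoters), from 75 to 66 bases before the start. GENCODE begins CXCR2, CXCL3 and CXCL8 upstream of the RefSeq starts used here. The printed stretches of CXCR2 and CXCL3, and part of that of CXCL8, therefore lie inside the GENCODE genes. Distances hold for the RefSeq starts only, and other starts of a gene were not covered. A match of letters is not a measured binding site.

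The libraries held between 32979521 and 40967880 counts, and TMM factors between 0.891 and 1.09 brought them to a common scale, called normalised counts here. CDKN1A, a p53 target used as a check of the treatment, had 4235, 5143 and 6050 normalised counts in NT and 40181, 41316 and 35832 in OXA. NT replicate 1 stood apart from NT replicates 2 and 3, with a chi-square per gene of 79.1 and 72.0, where the other pairs within a group had 18.3 to 28.1. All 8 epithelial markers were well expressed, EPCAM at 9963 ± 1012 normalised counts (SD, n = 3) in NT and 9689 ± 802 in OXA, but their level was not even. Their sum was 89482 to 123699 in NT and 137428 to 160643 in OXA. By edgeR 1 of the 8 was called higher (ELF3), beside 2.78% of all genes tested. The fit blocked on replicate number called 4 higher (KRT8, KRT18, KRT19 and ELF3) and 2 lower (CDH1 and ESRP1), beside 12.1% and 10.9% of all genes tested. The part of this uneven marker level in the results was not tested. Of 15 leukocyte markers, 4 were at 0 in every library (CD3D, MS4A1, FCGR3B and LCP2), and PTPRC, the defining marker of leukocytes, had a single raw count in NT replicate 2, 2 in OXA replicate 2 and none elsewhere. The summed level of the 15 was 191 to 228 normalised counts in NT and 219 to 255 in OXA, most of it CD68, which is not restricted to leukocytes. Of 10 fibroblast and endothelial markers, DCN and LUM were at 0 throughout, but others were not. The sum was 152 to 339 in NT and 225 to 327 in OXA. Most of it was COL1A1, at 175 ± 94.5 normalised counts in NT and 215 ± 55.2 in OXA. VWF had 19.8 ± 1.37 in NT and 18.4 ± 6.47 in OXA.

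The RNA of most of the 10 genes was scarce in these cells. In 8 of them no library reached 60 raw counts, the highest being 54 for EBI3, and only LIF and IL17RB were measured at depth. The filter on low counts left 7 genes for edgeR's quasi-likelihood test and removed CXCL2, CCL20 and IL1A. CXCR2 and EBI3 passed the filter through their OXA libraries, and neither would have passed on its NT libraries alone. Of the 7, CXCR2 and EBI3 were higher and IL17RB was lower in OXA at an adjusted p-value under 0.05, whereas CXCL1, CXCL3, CXCL8 and LIF did not pass. The test called 5.07% of all 13727 genes tested (2.78% higher and 2.29% lower). The same 3 genes were those whose groups did not overlap, which held for 28.9% of all genes tested. With no filter, CXCR2 and EBI3 had adjusted p-values by edgeR of 0.0310 and 0.0181. The 10 genes were picked with earlier results of these data known, and no test was made of the list.

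**Figure D1:**
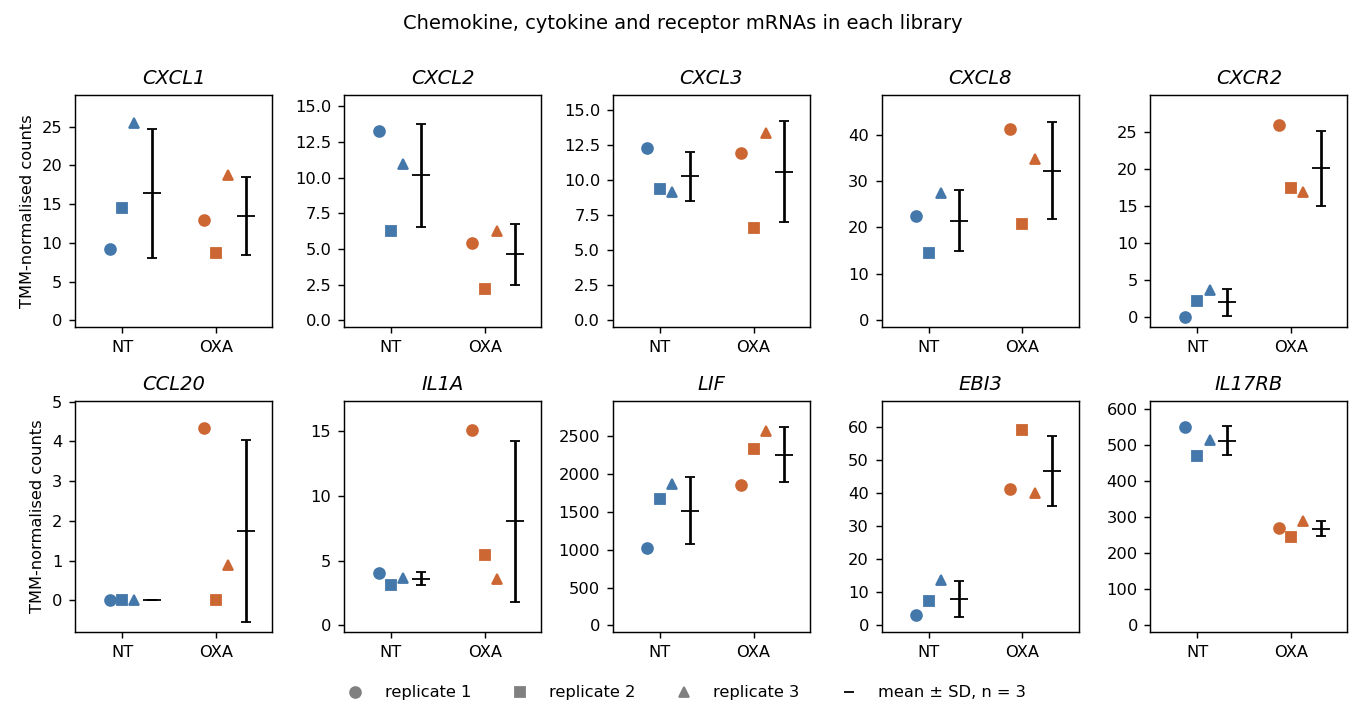
Normalised counts of the 10 genes (y axis, a separate linear scale in each panel) in the NT and OXA libraries, with marker shapes for replicates 1 to 3 and a bar for the mean ± SD of 3 libraries. CXCR2 and EBI3 sit higher in all 3 OXA libraries and IL17RB lower, whereas the groups of the other 7 genes overlap.

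Among the neutrophil-attracting ligands, no change passed the test. CXCL8, which encodes interleukin-8, had raw counts of 22, 14 and 30 in NT, against 38, 19 and 39 in OXA. The groups overlapped, since OXA replicate 2 lay below NT replicates 1 and 3. Its mean was 21.5 ± 6.47 normalised counts in NT and 32.2 ± 10.4 in OXA (log2 change 0.58 with SE 0.36, adjusted p by edgeR 0.407). Within each replicate number the OXA library was the higher one, by 0.87, 0.51 and 0.34 on the log2 scale, and a fit blocked on replicate number gave 0.159 as the adjusted p by edgeR. Counting error alone gave the pooled counts of 96 against 66 a ratio of 1.49 (exact 95% interval 1.08 to 2.07), which leaves out the spread between libraries.

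CXCL1 had raw counts of 9, 14 and 28 in NT, against 12, 8 and 21 in OXA. Its groups overlapped, and the highest library was NT replicate 3 (log2 change -0.28 with SE 0.47, adjusted p by edgeR 0.784). Without that library the log2 fold change was 0.17. CXCL3 had raw counts of 12, 9 and 10 in NT, against 11, 6 and 15 in OXA, with the OXA libraries on both sides of NT (log2 change 0.064 with SE 0.39, adjusted p by edgeR 0.946). For CXCL2 the NT libraries held 13, 6 and 12 raw counts and the OXA libraries 5, 2 and 7, under the filter. OXA was the lower library within each replicate number, at -1.30, -1.52 and -0.81 on the log2 scale, although OXA replicate 3 was level with NT replicate 2, both at 6.24 normalised counts. An exact two-sided permutation test of the CXCL2 means gave p = 0.2, where 3 libraries against 3 cannot go below 0.1. With no filter, its log2 change was -1.13 with SE 0.57 (adjusted p by edgeR 0.368). Pooled over a group, 14 counts of CXCL2 stood against 31, a ratio of 0.463 (exact 95% interval 0.227 to 0.896, counting error only).

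CXCR2, the receptor of these ligands and a gene best known from neutrophils, had raw counts of 0, 2 and 4 in NT, against 24, 16 and 19 in OXA. The groups were far apart, the lowest OXA library at 16.9 normalised counts and the highest NT library at 3.65. Such measurements are of bulk RNA, in which more or fewer transcribing cells and more or less RNA per cell cannot be told apart. The means were 1.91 ± 1.83 and 20.1 ± 5.08 normalised counts (log2 change 3.27 with SE 0.63, adjusted p by edgeR 0.0302). Pooled over a group, 59 counts stood against 6, a ratio of 10.1 with an exact 95% interval of 4.36 to 28.6 for counting error only. With 1 library left out, the log2 change of CXCR2 lay between 2.73 (without NT replicate 1) and 4.09 (without NT replicate 3). The call was kept without NT replicate 1, at an adjusted p by edgeR of 0.0184, and without any other single library it lay between 0.0692 and 0.140. DESeq2 gave CXCR2 an unadjusted p of 0.000712 across these libraries but an adjusted p of NA. CXCR1, the other receptor of CXCL8, had raw counts of 5, 0 and 5 in NT, against 3, 10 and 4 in OXA, and was under the filter. FCGR3B, a neutrophil marker, was at 0 in all 6 libraries, and CSF3R, another, had at most 1 raw count in a library. Not all leukocyte markers were absent. ITGAM had raw counts of 8, 4 and 4 in NT, against 12, 6 and 16 in OXA. CSF1R had 6, 5 and 11 against 12, 10 and 10, and LYZ had 11, 3 and 10 against 0, 0 and 4. ITGAM, CSF1R and LYZ were all under the filter.

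CCL20 was at 0 in all 3 NT libraries and had 4, 0 and 1 raw counts in OXA. A count of 0 allows up to 3 counts in a library, and the OXA libraries averaged less than that, so no fold is given (exact permutation p = 0.4, smallest possible 0.1). Its receptor gene CCR6 had raw counts of 25, 15 and 17 in NT, against 9, 5 and 6 in OXA. The OXA libraries of CCR6 were all below the lowest NT library, without passing the test (log2 change -1.46 with SE 0.41, adjusted p by edgeR 0.0864), and it passed in the fit blocked on replicate number (adjusted p by edgeR 0.0298). CCR6 was named for its pairing with CCL20, after its values were seen.

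IL1A had raw counts of 4, 3 and 4 in NT, against 14, 5 and 4 in OXA, so that the higher OXA mean came mainly from replicate 1, while OXA replicate 3 fell within the NT range. The means were 3.62 ± 0.49 and 8.05 ± 6.21 normalised counts, and the exact two-sided permutation test gave p = 0.3, with 0.1 the smallest possible. IL1B, the other main agonist of the same receptor, had 2, 0 and 1 raw counts in NT and 0 in each OXA library. The receptor gene IL1R1 was well expressed, with 745 ± 67.6 normalised counts in NT and 652 ± 55.3 in OXA, and did not pass (log2 change -0.19, adjusted p by edgeR 0.407).

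LIF was by far the most abundant of the 10 genes, with raw counts of 993, 1599 and 2038 in NT, against 1713, 2138 and 2886 in OXA. On the normalised scale these were 1015, 1662 and 1860 in NT and 1853, 2331 and 2571 in OXA. The groups touched at a single point, with OXA replicate 1 just under NT replicate 3, and NT replicate 1 was the lowest library. The mean went from 1512 ± 442 to 2252 ± 365 normalised counts and did not pass the test (log2 change 0.57 with SE 0.23, adjusted p by edgeR 0.196). Within each replicate number OXA was higher, by 0.87, 0.49 and 0.47 on the log2 scale. In the blocked fit LIF passed (log2 change 0.60 with SE 0.093, adjusted p by edgeR 0.0110), where that fit called 23.0% of all genes tested (12.1% higher and 10.9% lower). DESeq2 with the same block gave an adjusted p of 2.33e-06 for LIF, and DESeq2 without it 0.0812. Without NT replicate 1, the library that stood apart, the log2 fold change was 0.36 (adjusted p by edgeR 0.150).

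The receptor chains of LIF were also transcribed, and neither passed the test. LIFR had 1658 ± 152 normalised counts in NT and 1528 ± 192 in OXA (log2 change -0.12, adjusted p by edgeR 0.642). IL6ST, the shared signalling chain, had 3329 ± 369 and 2762 ± 283 (log2 change -0.27, adjusted p by edgeR 0.240), and it was lower in the blocked fit (adjusted p by edgeR 0.0231). STAT3, downstream of this receptor, went from 3890 ± 48.8 to 4930 ± 289 normalised counts (log2 change 0.34 with SE 0.082, adjusted p by edgeR 0.0576), and it was higher in the blocked fit (adjusted p by edgeR 0.0108). These 3 genes were named for their place in the pathway after their values were seen. By the rule for genes alike in pattern, SLC27A4, EIF5A and DPH2 followed LIF most closely over the 6 libraries, each with a Pearson correlation of 0.995 to 0.996 in log2 CPM, out of 12064 genes compared. The 6 points share 2 groups, their replicate numbers and their depths, and the ranking is a description.

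EBI3 had raw counts of 3, 7 and 15 in NT, against 38, 54 and 45 in OXA. The groups did not overlap, with NT replicate 1 the lowest and OXA replicate 2 the highest. The means were 8.01 ± 5.35 and 46.7 ± 10.6 normalised counts (log2 change 2.50 with SE 0.46, adjusted p by edgeR 0.0258). The difference within a replicate number was 3.74, 3.02 and 1.55 on the log2 scale. With 1 library left out, EBI3 kept its call in 2 of the 6 edgeR fits, those without NT replicate 1 (adjusted p 0.0153) and NT replicate 3 (0.0437), and lay between 0.0829 and 0.109 in the other 4. The log2 change was 2.30 to 2.58 in those 4 fits, 2.12 without NT replicate 1 and 3.12 without NT replicate 3. DESeq2, which called 9.26% of all genes tested (4.63% higher and 4.63% lower), also called EBI3, with an adjusted p of 0.00140. IL27 and IL12A encode chains with which EBI3 is known to pair, and they were picked after their values were seen. IL27 was nearly absent, whereas the mean of IL12A lay above that of EBI3 in both groups. IL27 was under the filter, and IL12A was tested but not called. IL27 had 0 counts in every NT library and 1, 1 and 0 in OXA. IL12A had 41.4 ± 5.60 normalised counts in NT and 53.5 ± 4.28 in OXA, with no overlap of the groups (log2 change 0.37 with SE 0.22, adjusted p by edgeR 0.381).

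IL17RB was the one gene of the 10 that edgeR called lower. It had raw counts of 539, 453 and 565 in NT, against 250, 226 and 326 in OXA, with no overlap and a small spread within each group. The means were 512 ± 40.2 and 269 ± 22.1 normalised counts (log2 change -0.93 with SE 0.13, adjusted p by edgeR 0.0115), and the within-number values of -1.03, -0.93 and -0.83 on the log2 scale lay close together. With a library left out, IL17RB kept its call in 3 of 6 edgeR fits, and the adjusted p was 0.0511 without NT replicate 3, 0.0686 without OXA replicate 2 and 0.0773 without OXA replicate 1. The log2 fold change stayed between -1.02 and -0.87 in these fits. Its co-receptor gene IL17RA had 1505 ± 200 normalised counts in NT and 1601 ± 6.28 in OXA (log2 change 0.090, adjusted p by edgeR 0.712). Of its ligands, IL25 was at 0 in all libraries and IL17B had at most 6 raw counts in a library. IL17RD, another receptor of the same family, was lower as well, with raw counts of 2029, 1839 and 2539 in NT, against 1316, 1186 and 1802 in OXA (log2 change -0.54 with SE 0.12, adjusted p by edgeR 0.0450). The call of IL17RD was kept in 1 of the 6 fits with a library left out, and IL17RA, IL25 and IL17B were named as partners of IL17RB after their values were seen.

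**Figure D2:**
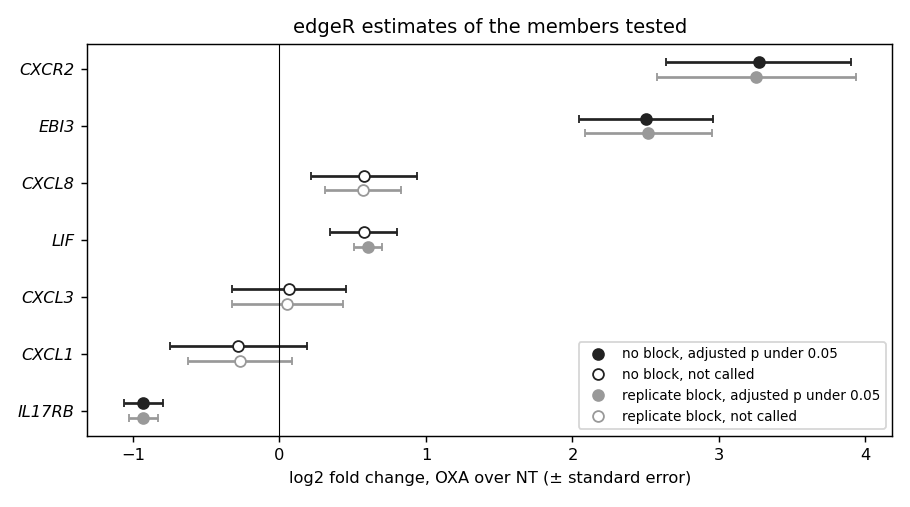
Log2 fold changes of OXA over NT (x axis) with standard errors for the 7 genes tested by edgeR, without a block (black) and blocked on replicate number (grey), filled where the adjusted p is under 0.05. CXCR2, EBI3 and IL17RB are filled in both fits, LIF with the block alone, at 0.60, and CXCL1, CXCL3 and CXCL8 in neither.

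**Figure D3:**
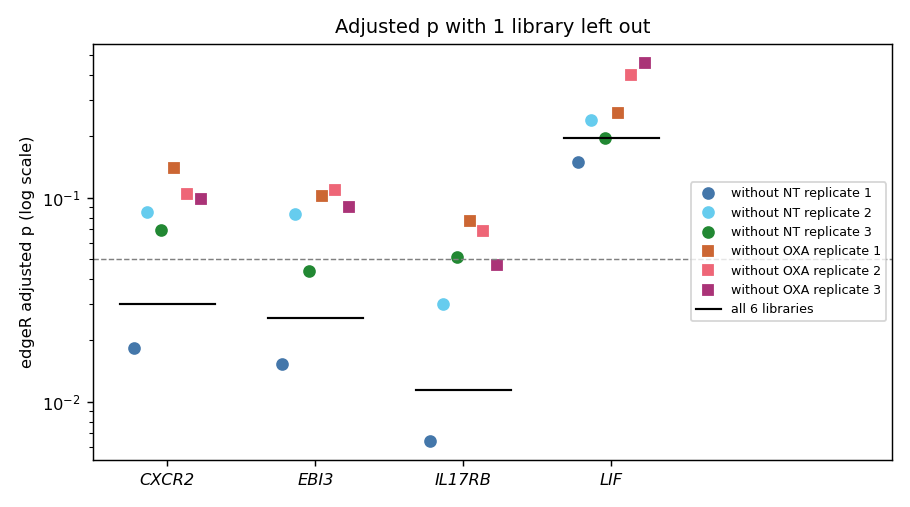
Adjusted p of edgeR (y axis, log scale) for 4 genes when each library is left out in turn, with circles for NT and squares for OXA libraries, a black line for all 6 libraries and a dashed line at 0.05. For CXCR2 the point without NT replicate 1 (0.0184) lies under the dashed line and the other 5 above it, and for LIF all 6 lie above.

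Levels were compared between genes as normalised counts per kilobase of annotated exon, with the exons of all transcripts of a gene joined. For CXCL3 this was 2219 bases, where its main transcript has 1075, so the order of the low genes can depend on the length used. In NT, LIF came first at 391 ± 114, followed by IL17RB at 168 ± 13.2, and both stood apart from their next neighbour in all libraries. CXCL1 (12.1 ± 6.12), CXCL8 (8.30 ± 2.50), CXCL2 (7.27 ± 2.57), EBI3 (6.38 ± 4.26) and CXCL3 (4.62 ± 0.79) followed, each overlapping the next. IL1A (1.79 ± 0.24), CXCR2 (0.59 ± 0.57) and CCL20 (0) closed the order. In OXA, LIF (582 ± 94.4) and IL17RB (88.4 ± 7.25) were still first, and EBI3 had moved to the third place, at 37.2 ± 8.41, apart from both its neighbours. CXCR2 reached 6.26 ± 1.58 in OXA, overlapping CXCL1 above it and CXCL3 below it.

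The rest of the families was read from 8 lists with 164 genes in the table, written from general knowledge. Of these, 77 passed the filter on low counts, and 4 were called by edgeR (5.19%), CXCR2 and EBI3 higher and IL17RB and IL17RD lower. Without the 10 genes themselves, 1 of 70 was called (1.43%), against 5.07% of all genes tested. In the fit blocked on replicate number, 9 of the 77 were higher and 7 lower (20.8%), against 23.0% of all genes.

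**Figure D4:**
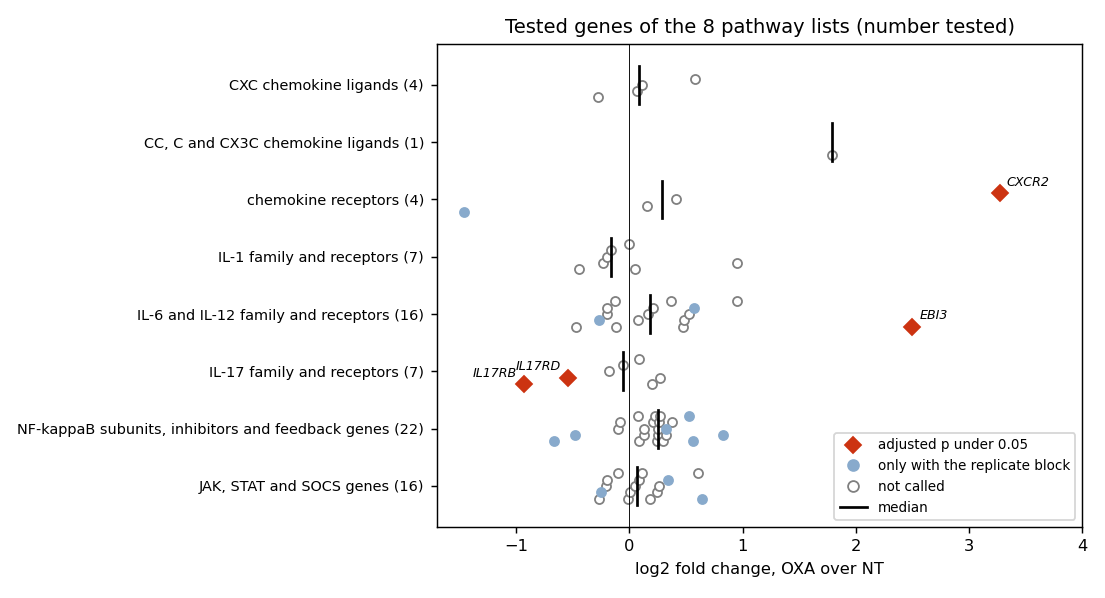
Log2 fold changes of OXA over NT (x axis) for the tested genes of the 8 lists (y axis, number tested in brackets), with red diamonds for genes called by edgeR, blue circles for genes called only with the replicate block, open circles for the others and a black line at the median. The 4 diamonds are CXCR2, EBI3, IL17RB and IL17RD, and most other genes lie close to 0.

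Chemokine RNA was scarce or not detected for most ligand genes. Of 17 CXC ligand genes, 11 had no count in any library, and of 27 CC, C and CX3C ligand genes 17 had none. The exception was CXCL16, a ligand that is made as a membrane protein, at 1831 ± 81.3 normalised counts in NT and 1982 ± 62.1 in OXA (log2 change 0.11 with SE 0.086, adjusted p by edgeR 0.502). Of the 4 tested CXC ligands edgeR called 0, with 0 at an unadjusted p under 0.05, which 21.7% of all genes tested had, and 0 by DESeq2 and limma-voom. DESeq2 gave CXCL1 and CXCL3 no adjusted p, so it could not call them. Of the CC, C and CX3C ligands CCL26 alone was tested, and it was not called by edgeR, DESeq2 or limma-voom (1 at an unadjusted p under 0.05). Of 24 chemokine receptor genes, 4 were tested and CXCR2 was called. In the list of the IL-1 family, edgeR called 0 of 7, with 1 at an unadjusted p under 0.05 and 0 by DESeq2 and limma-voom, and the most abundant was IL18 (log2 change -0.16, adjusted p by edgeR 0.487). Of 16 tested genes of the IL-6 and IL-12 families EBI3 was called, and the median log2 fold change was 0.18. Of 7 tested genes of the IL-17 family, 2 were lower, with a median of -0.054.

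NF-kappaB genes, whose products drive and limit chemokine transcription, gave no call by edgeR without the block. Of 22 tested, edgeR called 0, with 8 at an unadjusted p under 0.05 (beside 21.7% of all genes tested), 3 by DESeq2 and 0 by limma-voom. Their median log2 fold change was 0.25, beside 0.023 over all genes tested. In the blocked fit, which called 23.0% of all genes tested, 4 were higher and 2 lower. Those higher were ICAM1, an adhesion molecule for leukocytes (262 ± 26.7 to 465 ± 130 normalised counts, adjusted p by edgeR 0.0143), BIRC3, TNFAIP2 and IER3. Those lower were REL and NFKBIZ, at block log2 fold changes of -0.47 and -0.68. IER3 was the most abundant of the list, at 7673 ± 1192 normalised counts in NT and 9635 ± 779 in OXA (log2 change 0.33 with SE 0.13, adjusted p by edgeR 0.196). Of 16 JAK, STAT and SOCS genes tested, edgeR called 0, with 3 at an unadjusted p under 0.05, 2 by DESeq2 and 0 by limma-voom. Their median log2 fold change was 0.068. With the block, STAT3 and STAT4 were higher and 1 gene of the list was lower.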

How the data were processed

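Polyadenylated RNA of 6 samples of HCT116 cells, 3 NT and 3 OXA, was sequenced as stranded libraries of 100-base paired reads. Per the labels, the submitters' processing notes name Trimmomatic 0.32, STAR 2.7.5b, RSEM 1.3.3 and DESeq2, with GRCh38, and the study's methods state mapping by STAR and normalization by DESeq2. The gene annotation and strand setting of the counting are not given in the sources used here. The authors deposited a raw count per gene and library, used as deposited, and a normalised signal, which was the raw count times a factor that varied by gene and library and was used in an alternative only. Groups and replicate numbers were taken from the sample titles.

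After filterByExpr (minimum count 10, minimum total 15) and TMM scaling, edgeR 4.0.16 tested OXA over NT by quasi-likelihood across all 13727 genes, and p-values had Benjamini-Hochberg adjustment. R 4.3.3 ran this, DESeq2 1.42.0 and limma 3.58.1. The standard error (SE) was the log2 change over the root of F, and values after ± are SD over 3 libraries. Genes under the filter were compared by exact permutation tests over libraries (scipy 1.17.1). Intervals of pooled counts were exact (Clopper-Pearson, 95%) and, like the floor of 3 counts, cover counting error only, since PCR duplicates were not distinguishable. The edgeR, DESeq2 and limma-voom fits were tested on simulated counts. Their random spread per gene was set below that estimated from these libraries, so performance at the spread of these data was not tested.

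NT and OXA libraries of one number departed jointly from their group means, with correlations of 0.55, 0.54 and 0.31 for numbers 1 to 3, against -0.47 to 0.090 for different numbers. Deviations from a group mean cancel within the group, so the values for different numbers are not independent of those for the same number. Only the titles give the replicate numbers. The fit with the replicate block is given where it changes a call. The named genes are the 10 genes, the called genes of 8 lists (at most 4 in each direction by size) or, with none called, the most abundant, 3 genes most like the most abundant of the 10, and CDKN1A. Other names are partners, markers and genes called under the block, chosen with their values seen. One gene that the rule names is not reported here. The 10 genes and the lists were chosen with earlier results of these data known. Of 23 NF-kappaB genes written, 22 were in the table. Alternatives were other size factors, filters, DESeq2, limma-voom, the authors' factors, the block and leaving out each library. Promoters came from RefSeq tables of GRCh38.p14, with entries for 9 of the 10 genes.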

Additional observations from a re-analysis of the deposited data

How the results depend on the processing

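The directions of CXCR2, EBI3, IL17RB, LIF and CXCL8 were the same in every setting that tested them. With 1 library left out, 0 to 2 of the 10 genes were higher in OXA and 0 to 1 lower, with list genes called 0 to 7, and all genes called 66 to 623 higher and 19 to 571 lower. In the fits with 0 of the 10 higher (without NT replicate 2 or any OXA replicate), CXCR2 and EBI3 still had unadjusted p-values under 0.05 by edgeR, and in the 2 fits with 0 list genes called (without OXA replicate 1 or 2) 15 and 10 list genes did. Leaving out NT replicate 2, NT replicate 3 or OXA replicate 3 left 1 list gene called, and leaving out NT replicate 1 gave 7. CXCL1 ranged from -0.63 to 0.17 and CXCL3 from -0.18 to 0.31 on the log2 scale, with CXCL3 also at -0.16 under the authors' factors, so neither has a stable sign. The cause was not tested.

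With the replicate block, edgeR called 1664 genes higher and 1493 lower, 16 list genes, and 3 of the 10 genes higher. It changed no call of the 7 genes tested other than LIF. DESeq2 with the replicate block gave 1546 higher, 1208 lower, 14 list genes and 1 of the 10 genes higher (LIF), CXCR2 and EBI3 having no adjusted p there. DESeq2 without it gave 636 higher, 635 lower, 8 list genes and 1 of the 10 genes higher (EBI3), CXCR2 again having no adjusted p. The authors' factors gave 241 higher and 200 lower. A filter of 1 CPM in 3 libraries gave 479 lower and left 7 of the 10 genes untested, CXCR2 among them, so that 1 of the 10 was higher. With no filter 0 were untested. Depth limits the 8 genes that stayed under 60 raw counts in every library.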

Other observations

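Some low genes of the same families had OXA libraries above all NT libraries without a call. Over all genes tested, OXA lay above NT in every library for 14.5% and below it for 14.4%. Other genes of these families lay below without a call, such as CCR6 and IL18BP (log2 changes -1.46 and -0.44, adjusted p by edgeR 0.0864 and 0.248). All genes named here were picked after their values were seen. CCL26, which encodes an eosinophil-attracting chemokine, had raw counts of 4, 14 and 1 in NT, against 15, 27 and 24 in OXA (log2 change 1.79 with SE 0.69, adjusted p by edgeR 0.183). IL1RN, which encodes the natural antagonist of the IL-1 receptor, had raw counts of 5, 9 and 12 in NT, against 18, 13 and 18 in OXA (log2 change 0.95 with SE 0.38, adjusted p by edgeR 0.198). IL31RA had raw counts of 19, 8 and 23 in NT, against 31, 28 and 35 in OXA (log2 change 0.95 with SE 0.36, adjusted p by edgeR 0.175). In the fit blocked on replicate number CCL26, IL1RN and IL31RA had adjusted p-values by edgeR of 0.0592, 0.140 and 0.0827.

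Of the 8 epithelial markers, edgeR called 1, DESeq2 3 and limma-voom 1. Over all genes tested, edgeR called 5.07%, DESeq2 9.26% and the fit blocked on replicate number 23.0%. ELF3, an epithelial transcription factor, was the one called by edgeR, from 1346 ± 355 to 2924 ± 194 normalised counts (log2 change 1.12 with SE 0.19, adjusted p by edgeR 0.0210). KRT19, a keratin, had a larger change without a call, from 12220 ± 5049 to 29835 ± 5640 normalised counts (log2 change 1.29 with SE 0.32, adjusted p by edgeR 0.0616), and passed in the fit blocked on replicate number (log2 change 1.37, adjusted p by edgeR 0.00673). In that fit KRT8 and KRT18 were also higher (adjusted p by edgeR 0.0271 and 0.0184), and CDH1 and ESRP1 were lower (0.0408 and 0.00543).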
